A study of Mus musculus with 8 samples.

Results

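Immediate early genes are the genes that a stimulated cell transcribes first, without having to make new protein. The 10 genes described here were Fos, Fosb, Jun, Junb, Egr1, Egr2, Atf3, Ier2, Nr4a1 and Klf10, taken by name and found on the array through RefSeq accessions, out of 45616 genes and transcripts with a probe. All 10 had a probe well above background. The list was chosen by role with the measured intensities of these genes in all 4 groups already known, so their levels and differences are given as a description and carry no test.

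Lung RNA of 8 female BALB/c mice was measured on 1-color microarrays, 1 mouse per array and 2 mice in each of 4 groups. The mice were 4 weeks old at purchase, were housed for 2 weeks and were then fed for 70 days, NT and Ctrl-F on standard feed, Cap-F on feed with the control particles and ODNcap-F on feed with particles that carried the CpG oligodeoxynucleotide. NT received no allergen, whereas Ctrl-F, Cap-F and ODNcap-F all received ovalbumin (OVA), by intraperitoneal injection of 1 µg with 2 mg of aluminum gel on Days 42, 49 and 56 and by inhalation of a 2% solution from Day 63 to Day 69, and their lungs were taken 24 h after the last inhalation. No injection, aluminum gel or inhalation is listed for NT. The allergen therefore cannot be told apart from the injections, the gel, the inhalation and the handling, and OVA below names this whole treatment. The comparisons asked how these transcripts differed between treated and untreated mice and whether the feeds differed under OVA.

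The proteins of these genes are mostly transcription factors that pass a brief signal on to later genes. Fos and Jun family proteins pair into AP-1, EGR proteins bind GC-rich sites through zinc fingers, and ATF3 is a stress-induced relative of AP-1. Serum response factor, which binds the CArG box, and CREB, which binds the cyclic AMP response element (CRE), are known to start several of them, and their messages are short-lived.

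RefSeq promoter windows (build GRCm38.p6) were found for 7 of the 10 genes. The 250 bases before the start are shown for Egr2 and Atf3, the pair with the highest differences below, and for Fos, the classic member of the class that did not share their pattern. Capitals mark a CArG box and a CRE core (TGACGT on either strand) in Egr2, and a CRE core alone in Atf3 and Fos. Only these 250 bases were searched, so a motif further upstream, such as a CArG box, would not be seen. Egr2 had 5 windows, and the one shown was picked as the first with the most of these motifs. Another Egr2 window held a separate CArG box without the CRE core, and not every window held either. Atf3 and Fos had 1 window each, so the number of motifs is not compared between the genes. The windows are chr10:67537619-67537868 on the plus strand for Egr2, chr1:191183334-191183583 on the minus strand for Atf3 and chr12:85473640-85473889 on the plus strand for Fos.
Egr2: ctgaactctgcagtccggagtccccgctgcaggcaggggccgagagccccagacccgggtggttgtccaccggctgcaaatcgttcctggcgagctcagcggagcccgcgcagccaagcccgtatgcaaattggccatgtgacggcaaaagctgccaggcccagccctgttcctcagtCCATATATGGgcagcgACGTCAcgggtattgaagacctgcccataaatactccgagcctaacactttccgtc
Atf3: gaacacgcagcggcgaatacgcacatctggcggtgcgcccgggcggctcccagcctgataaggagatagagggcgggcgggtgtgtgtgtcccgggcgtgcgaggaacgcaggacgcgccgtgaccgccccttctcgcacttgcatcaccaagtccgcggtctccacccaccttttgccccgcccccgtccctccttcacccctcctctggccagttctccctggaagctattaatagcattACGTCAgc
Fos: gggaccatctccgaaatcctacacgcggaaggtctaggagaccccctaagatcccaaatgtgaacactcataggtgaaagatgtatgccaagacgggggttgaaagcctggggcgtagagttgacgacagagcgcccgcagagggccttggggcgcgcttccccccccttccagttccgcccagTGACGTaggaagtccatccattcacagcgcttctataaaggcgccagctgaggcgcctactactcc
In this Egr2 window the CArG box lay at -72 to -63 and the CRE core at -56 to -51 from the start. The core lay at -8 to -3 in Atf3 and at -66 to -61 in Fos. Of 32851 mouse promoter windows of 250 bases, 6.47% held TGACGT on either strand, 1.55% the full CRE (TGACGTCA, which contains it) and 1.47% a CArG box. An EGR site (GCGNGGGCG on either strand, in 4.7% of all windows) began at -50 in Fosb and at -60 in Nr4a1. The AP-1 site (TGANTCA on either strand, in 6.75% of all windows) was matched in none of the members' windows. These matches describe the letters only.

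Egr2, a zinc finger factor of myeloid and lymphoid cells and of myelinating glia, was more than 10-fold higher in every OVA-challenged group than in NT. Its normalized log2 intensity was 9.19 and 9.42 for NT, 12.84 and 13.05 for Ctrl-F, 12.91 and 12.54 for Cap-F and 12.91 and 12.44 for ODNcap-F. All 6 challenged mice lay above both NT mice, and the 3 challenged groups overlapped. The difference from NT, given here and below in the order Ctrl-F, Cap-F, ODNcap-F, was 3.64, 3.42 and 3.37 (log2, SE 0.20, n = 2 per group), which is 12.5-, 10.7- and 10.3-fold. Of all genes, 1.76%, 1.84% and 1.94% had a higher difference in these comparisons.

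Atf3, the stress-induced bZIP factor, followed the same order of groups. Its log2 intensity was 7.82 and 8.15 for NT, 11.27 and 11.43 for Ctrl-F, 11.35 and 11.03 for Cap-F and 11.15 and 10.71 for ODNcap-F. The NT mice again lay apart from the rest, and both ODNcap-F mice lay below both Ctrl-F mice but not below both Cap-F mice. The difference from NT was 3.36, 3.21 and 2.95 (log2, SE 0.20), or 10.3-, 9.23- and 7.71-fold. In whole lung RNA, more cells that carry a message and more message per cell cannot be told apart.

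**Figure D1:**
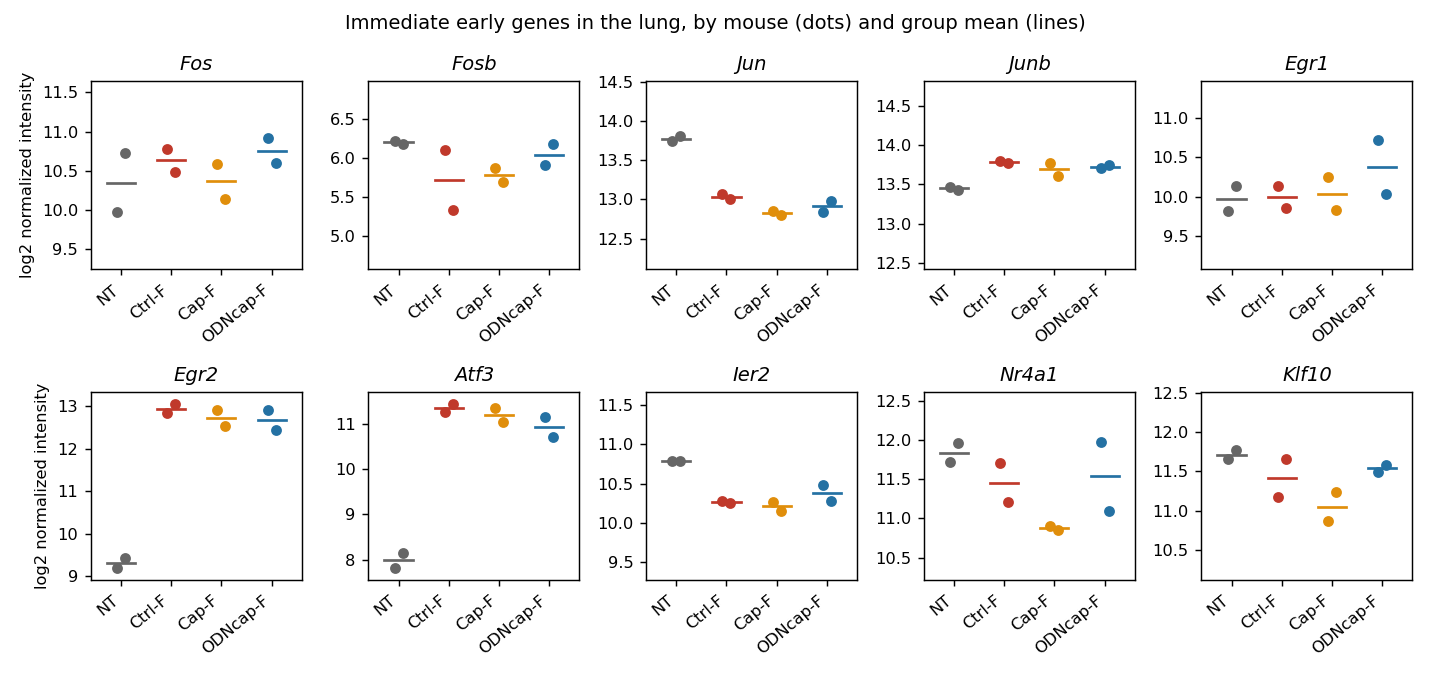
Normalized log2 intensity (y axis, whose range differs between panels) of each of the 10 genes by group (x axis), with 1 dot per mouse and a line at the mean of the 2 mice. In the Egr2 and Atf3 panels NT stands apart below the 3 OVA-challenged groups, and in the Jun and Ier2 panels NT stands above them.

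Egr1, the relative of Egr2 that responds to growth factors and stretch, did not share this pattern. Its log2 intensity was 9.82 and 10.13 for NT, 10.14 and 9.85 for Ctrl-F, 10.25 and 9.83 for Cap-F and 10.72 and 10.03 for ODNcap-F. All 4 groups overlapped, and Ctrl-F differed from NT by 0.02 and Cap-F by 0.06 (log2, SE 0.27). The ODNcap-F mean exceeded NT by 0.40, and the first ODNcap-F mouse lay above all others. Without that mouse the difference was 0.055.

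Of the Fos family, the partners that bind DNA only together with a Jun protein, Fos stood at 9.98 and 10.72 for NT, 10.77 and 10.49 for Ctrl-F, 10.59 and 10.15 for Cap-F and 10.91 and 10.60 for ODNcap-F. The gap between the 2 NT mice was 0.75, wider than any difference between group means of Fos, and the differences from NT were 0.28, 0.02 and 0.41 (SE 0.29). Without the first NT mouse they were -0.09, -0.36 and 0.03. Fosb stood at 6.22 and 6.18 for NT, 6.10 and 5.34 for Ctrl-F, 5.87 and 5.70 for Cap-F and 5.90 and 6.18 for ODNcap-F. All 6 challenged mice lay below both NT mice, with mean differences of -0.48, -0.42 and -0.16 (SE 0.25), although the second ODNcap-F mouse equalled an NT mouse to 2 decimals. The difference of Ctrl-F from NT was -0.10 without the second Ctrl-F mouse, and that of ODNcap-F was -0.02 without the first ODNcap-F mouse. A second Fosb probe was not well above background on any array.

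The 2 Jun genes went opposite ways. Jun, the main DNA-binding partner in AP-1, had a log2 intensity of 13.74 and 13.81 for NT, 13.07 and 13.00 for Ctrl-F, 12.85 and 12.81 for Cap-F and 12.84 and 12.98 for ODNcap-F. All challenged mice lay below NT, and the differences of -0.74, -0.95 and -0.86 (SE 0.077) left each group mean between 1.67- and 1.93-fold lower.
Junb, a Jun protein that often opposes Jun, stood at 13.47 and 13.43 for NT, 13.80 and 13.77 for Ctrl-F, 13.78 and 13.60 for Cap-F and 13.71 and 13.74 for ODNcap-F. Here all challenged mice lay above NT, by 0.34, 0.24 and 0.28 (SE 0.079), and Cap-F by 0.15 without its first mouse. The second Junb probe, at 6.85 and 7.09 in NT, gave 7.17 and 7.43 in Ctrl-F, with Ctrl-F above NT, while its Cap-F values of 7.26 and 7.06 overlapped NT.

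Ier2, a small nuclear protein of the early growth response, was lower under OVA. The NT mice read 10.79 each, against 10.28 and 10.25 in Ctrl-F, 10.27 and 10.15 in Cap-F and 10.48 and 10.28 in ODNcap-F. The differences from NT were -0.52, -0.58 and -0.41 (SE 0.090), with no overlap between NT and the challenged mice.

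Nr4a1, an orphan nuclear receptor induced by antigen receptor signaling and in macrophages, had the widest gap between mice of 1 group. It stood at 11.72 and 11.95 for NT, 11.70 and 11.21 for Ctrl-F, 10.90 and 10.85 for Cap-F and 11.98 and 11.09 for ODNcap-F. Both Ctrl-F mice lay below NT, the higher of them narrowly, both Cap-F mice lay below every other mouse, and the ODNcap-F mice spanned the NT range. The differences from NT were -0.38, -0.96 and -0.30 (SE 0.31). That of Ctrl-F was -0.13 without its second mouse, and that of ODNcap-F was -0.74 without its first mouse and turned to 0.14 without its second.

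Klf10, a zinc finger repressor induced by TGF-beta, had 2 probes for 2 transcripts that did not behave alike. The brighter one (NM_013692) stood at 11.66 and 11.77 for NT, 11.17 and 11.66 for Ctrl-F, 10.86 and 11.24 for Cap-F and 11.49 and 11.58 for ODNcap-F, which put the means 0.66 below NT in Cap-F and by less in the other groups (-0.29 and -0.17, SE 0.19). The dimmer one (NM_001289471) was well above background only in the 2 Ctrl-F mice, at 4.60 and 4.71. With both probes averaged, the difference of Ctrl-F from NT was 0.60, a size that rests on dimmer-probe readings in NT that were not well above background. On the brighter probe the difference of Ctrl-F from NT was -0.05 without the first Ctrl-F mouse. The dimmer probe was at least 2.04-fold higher there than in NT. The bound was at least 1.51-fold over Cap-F and at least 1.45-fold over ODNcap-F, each taken against the lowest signal well above background on the dimmer arrays.

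Counted together, 3 of the 10 genes in Ctrl-F lay above NT without overlap (Junb, Egr2 and Atf3) and 4 lay below (Fosb, Jun, Ier2 and Nr4a1). Over all 28992 genes measured, 35.5% lay above and 48.5% below without overlap in that comparison, so that nothing is read from these counts. Cap-F gave 3 above and 5 below (all genes, 34.3% and 47.8%), and ODNcap-F 3 above and 4 below (34.2% and 48.1%). Past 2-fold and without overlap, Egr2 and Atf3 were higher in each of the 3 groups, against 10.7%, 9.89% and 10% of all genes, and no member was lower, against 12.8%, 10.6% and 11.4%. The median difference of the members from NT was -0.14, -0.20 and 0.060, beside -0.12, -0.11 and -0.12 over all genes. These 3 comparisons share the NT mice.

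**Figure D2:**
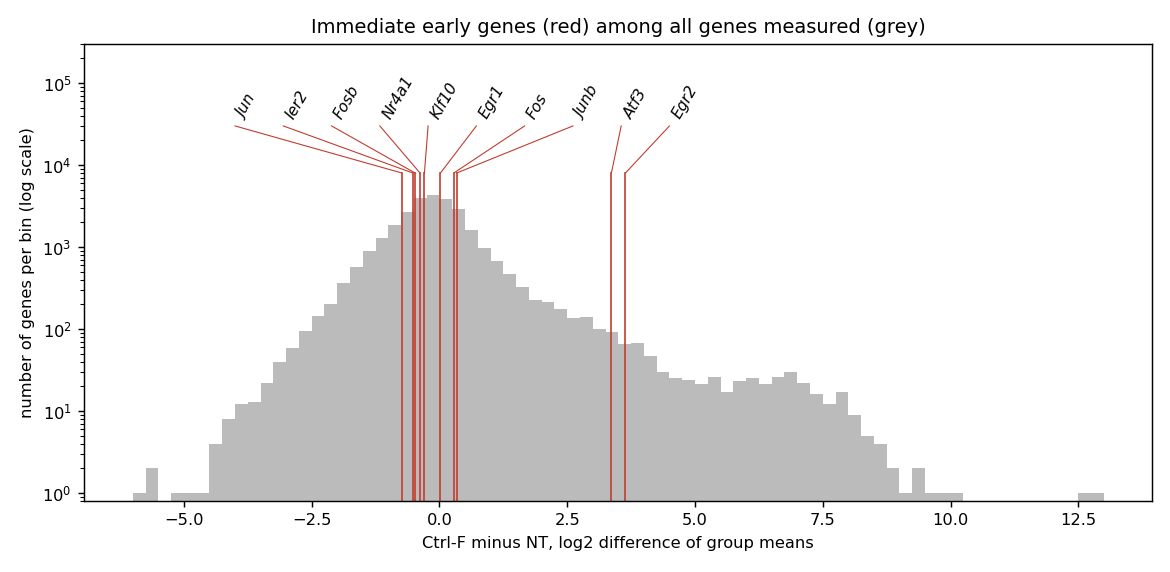
Number of genes per bin (y axis, log scale) by log2 difference of Ctrl-F from NT (x axis) for all 28992 genes in grey, with a red line at each of the 10 members. Atf3 (3.36) and Egr2 (3.64) stand in the right tail, and the other 8 stand between -0.74 (Jun) and 0.34 (Junb).

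Between the OVA-challenged groups the differences were small on the probe that stands for each gene. On that probe no member reached 2-fold in any of the 3 comparisons, where the background of genes past 2-fold without overlap was 0.631% up and 0.345% down in ODNcap-F relative to Ctrl-F, 0.424% and 0.421% in ODNcap-F relative to Cap-F, and 0.752% and 0.5% in Cap-F relative to Ctrl-F. The dimmer Klf10 probe, well above background only in Ctrl-F, read -2.64 in Cap-F and -1.32 in ODNcap-F relative to Ctrl-F. It read 1.32 in ODNcap-F relative to Cap-F, where neither group was well above background. With both probes averaged, Klf10 was at -1.50 in Cap-F relative to Ctrl-F, beside -0.37 on the brighter probe. The averaged value rests on dimmer-probe readings in Cap-F that were not well above background, so its size is not read. Against Ctrl-F, ODNcap-F was lower without overlap for 3 members, Jun (-0.13), Junb (-0.06) and Atf3 (-0.42), and higher for none (all genes, 18.6% lower and 17% higher). Atf3 was at -0.20 without the second ODNcap-F mouse and -0.64 without the first, and Jun at -0.06 without the first and -0.19 without the second. Cap-F was lower than Ctrl-F without overlap for Jun (-0.21) and Nr4a1 (-0.58), and higher for none (25.8% and 25.9%). Without the first Ctrl-F mouse the Nr4a1 difference was -0.33.

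Against Cap-F, 5 members were higher in ODNcap-F without overlap and none was lower (all genes, 21% higher and 24.7% lower). These were Fos (0.39, SE 0.29), Fosb (0.26, SE 0.25), Ier2 (0.17, SE 0.090), Nr4a1 (0.66, SE 0.31) and Klf10 (0.49, SE 0.19). With 1 mouse left out, Fos fell to 0.17 (second Cap-F mouse), Fosb to 0.12 (second ODNcap-F mouse), Ier2 to 0.07 (first ODNcap-F mouse) and Klf10 to 0.30 (first Cap-F mouse). The median over the members was 0.21, beside -0.0089 over all genes, and was 0.12 without the second Cap-F mouse and 0.11 without the first ODNcap-F mouse. The Nr4a1 difference fell to 0.22 without the first ODNcap-F mouse and was 1.10 without the second, and the 0.34 of Egr1 became -0.01 without the first. For Egr2 the difference was -0.05 (SE 0.20) and for Atf3 -0.26 (SE 0.20), so that the genes highest under OVA were not among the 5. In the same comparison 6 of 7 glucocorticoid response genes were higher without overlap and none was lower (median 0.38). Of 9 heat shock genes 3 were higher and 3 lower without overlap, and past 2-fold 2 were higher and 1 lower. Their differences ran from -1.08 to 1.10 with a median of -0.17, and Hspa1a (1.05, SE 0.58) and Hspa1b (1.10, SE 0.60) were among the higher. The 6 cardiomyocyte markers all overlapped (median 1.24). The part of these in the members' values was not tested.

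**Figure D3:**
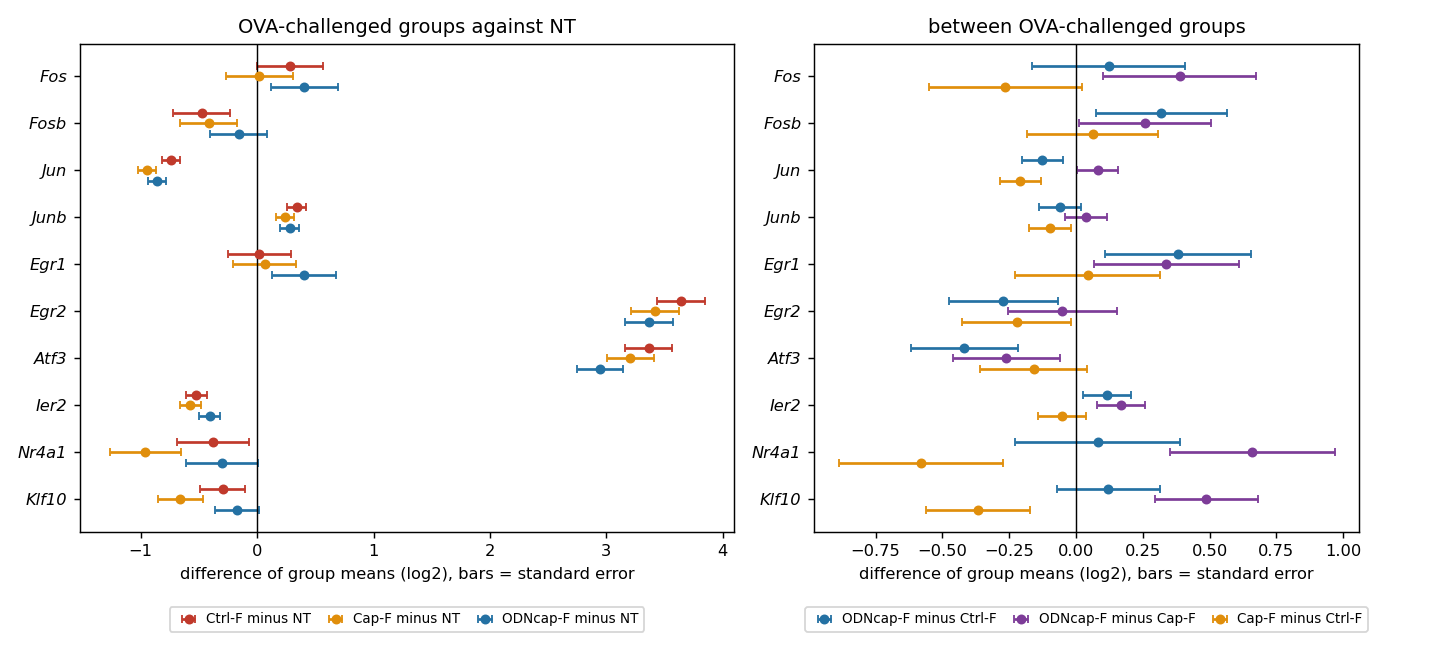
Difference of group means on the log2 scale (x axis, bars are standard errors of the fit, 2 mice per group) for each of the 10 genes (y axis), against NT on the left and between the OVA-challenged groups on the right. The x axes differ in range, with Egr2 and Atf3 above 2.9 on the left and all points on the right within 0.7 of 0.

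The gap between the 2 mice of a group was at the median wider for the members than over all genes. It was 0.17 for NT, 0.25 for Ctrl-F and for Cap-F and 0.29 for ODNcap-F, beside 0.11, 0.12, 0.10 and 0.13 over all genes. The widest gap within each group was that of Fos in NT (0.75) and Cap-F (0.45), of Fosb in Ctrl-F (0.76) and of Nr4a1 in ODNcap-F (0.89). The pairs of members closest in profile over the 8 arrays, after each gene was centered on its mean, were Egr2 with Atf3 (root mean square distance 0.15 on the log2 scale), Fos with Egr1 (0.19), Jun with Ier2 (0.19) and Fosb with Ier2 (0.24).

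Another 86 genes of the pathway were listed in 5 groups by role, and 82 of them were measured above background. Unlike the members they were tested, with limma, and counted where the p adjusted over all probes was under 0.05 and the fold over 2. These lists too were chosen with earlier results of these data known, and the p values do not account for that choice. In Ctrl-F, 12 rose and 15 fell against NT (14.6% and 18.3%, beside 10.5% and 12.2% of all genes). In Cap-F, 10 rose and 15 fell (12.2% and 18.3%, beside 9.74% and 9.87%), and in ODNcap-F, 10 rose and 12 fell (12.2% and 14.6%, beside 9.86% and 10.8%). None of the 82 passed in the 3 comparisons between challenged groups by limma, at an unadjusted p under 0.05 with the same fold, or by the local-pooled-error test. Over all genes limma called 0% between ODNcap-F and Ctrl-F and 0.00345% in each of the other 2, and at the unadjusted p 0.655% between ODNcap-F and Ctrl-F, 0.642% between ODNcap-F and Cap-F and 0.98% between Cap-F and Ctrl-F.

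Of 12 AP-1 and other bZIP partners, 3 rose in each challenged group, none fell in Ctrl-F and ODNcap-F, and 1 fell in Cap-F, with medians of -0.15, -0.23 and -0.19. Batf3, needed for the development of a dendritic cell subset, stood at 7.11 and 7.15 in NT and between 10.61 and 11.01 in the 6 challenged mice. It rose by 3.86 in Ctrl-F (log2, SE 0.12, limma adjusted p = 9.76e-06). Fosl1, Egr4 and Dusp5 of the 5 lists had no probe that passed the filter, and Nab1 was not matched by accession.

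Among 9 relatives of the EGR, NR4A and KLF members and the NAB corepressors, 1 rose and 6 fell in Ctrl-F and in Cap-F, and 1 rose and 5 fell in ODNcap-F, with medians of -1.10, -1.19 and -1.03. Egr3, a close relative of Egr2 in lymphocytes, was the one that rose, from 5.55 and 5.57 in NT to 7.58 and 7.40 in Ctrl-F (1.94, SE 0.12, limma adjusted p = 8.74e-05), and its second probe rose by 2.04. Klf11, the closest relative of Klf10, fell from 8.16 and 8.04 in NT to 6.12 and 6.49 in Ctrl-F (-1.79, SE 0.17). Klf4, a factor of epithelium and vessel wall, fell from 14.70 and 14.88 to 13.19 and 13.44 (-1.48, SE 0.17). Picked after their values were seen, both relatives of Nr4a1 were among those that fell, Nr4a2 by 1.38 and Nr4a3 by 1.05 in Ctrl-F.

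The 33 other early response genes split, with 5 rising and 3 falling in Ctrl-F and 3 rising and 2 falling in each of Cap-F and ODNcap-F, at medians of -0.0067, -0.12 and 0.022. Myc, a driver of cell growth, rose from 7.42 and 7.36 in NT to 9.34 and 9.28 in Ctrl-F (1.92, SE 0.079), and Gadd45g, a stress response gene, rose by 1.83 (SE 0.10). Ier3, an early gene that modulates cell survival, fell from 11.47 and 12.07 to 10.37 and 10.24 (-1.46, SE 0.20). Plk2, a polo-like kinase, fell by 1.14 (SE 0.26) in Ctrl-F, and its difference in Cap-F of -0.86 was under 2-fold.

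On the probe that stands for each gene, none of the 17 upstream factors and kinases passed in any challenged group, and their medians were -0.34, -0.30 and -0.30. Srf, the serum response factor itself, read 10.88 and 10.71 in NT and between 10.52 and 10.67 in the challenged mice. For Elk1 and Creb1, probes of the same gene differed in sign, at -0.08 and 0.99 for Elk1. A second probe of Rps6ka1, a kinase below ERK, did pass in Ctrl-F (1.27, limma adjusted p = 4.96e-05), while its brighter probe differed by 0.68.
Of 11 feedback phosphatases and Sprouty proteins, which end MAP kinase signals, 3 rose in each challenged group, 6 fell in each of Ctrl-F and Cap-F, and 5 fell in ODNcap-F, with medians of -1.10, -1.04 and -0.85. Spry1 fell from 13.04 and 13.21 in NT to 11.28 and 11.34 in Ctrl-F (-1.81, SE 0.11). Dusp1, a phosphatase that is itself an early gene, fell from 13.78 and 13.96 to 12.40 and 12.45 (-1.44, SE 0.20). Dusp4 rose by 1.62 (SE 0.13). Spred2 rose by 3.41 (SE 0.25) on its brighter probe, while its other probe differed by -0.78, under 2-fold, so that its direction depends on the probe. Named for their other probes, Spred1 and Spry2 fell in Ctrl-F by 1.10 and 1.29 on the brighter probe. Their other probes differed by only -0.25 and -0.38. Dusp8 was at -1.22 on its brighter probe and -1.33 on the other.

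**Figure D4:**
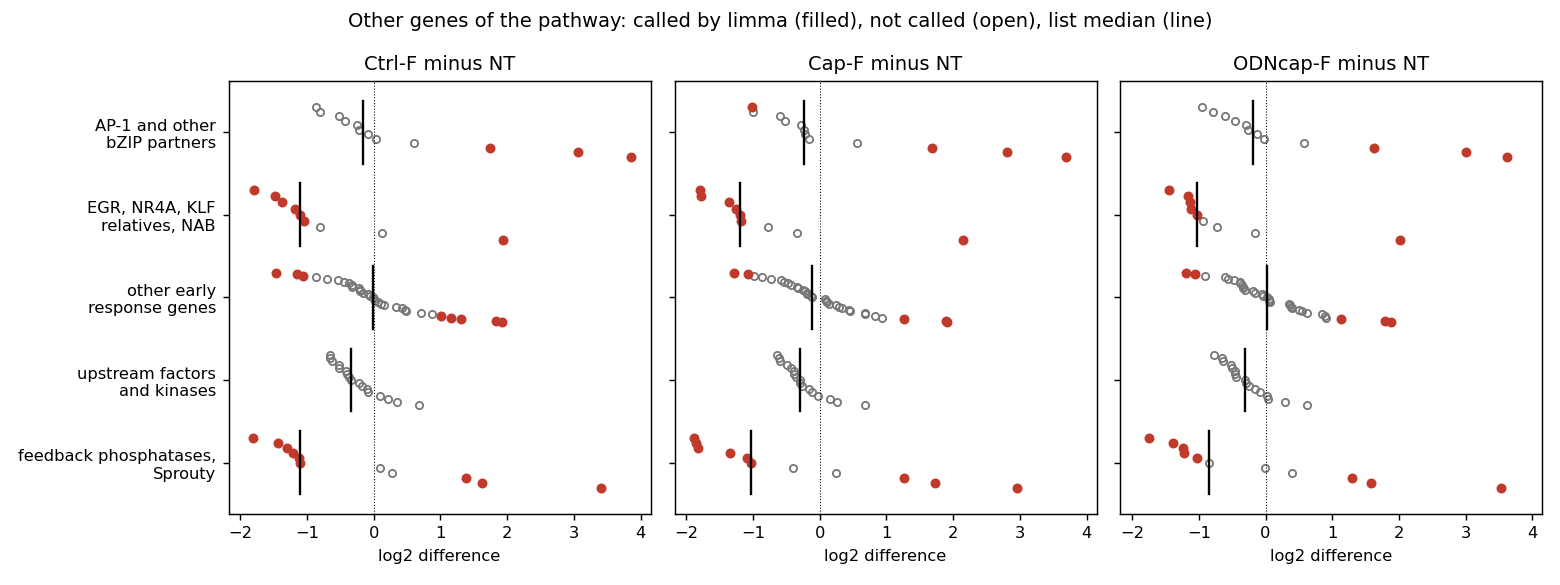
Log2 difference from NT (x axis) of every measured gene of the 5 pathway lists (y axis), 1 panel each for Ctrl-F, Cap-F and ODNcap-F. Filled points passed the limma threshold, open points did not, and a line marks each list's median, which lies between -1.19 and -0.85 for the EGR, NR4A and KLF relatives and the feedback proteins and between -0.34 and 0.022 for the other 3 lists.

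Genes of other cell types moved with the contrast against NT, and some between the challenged groups. Of the 6 macrophage and dendritic cell markers, 5 rose and 1 fell in Ctrl-F, and their summed intensity (log2) was 14.64 to 14.66 in NT, 17.36 in both Ctrl-F mice, 17.33 to 17.34 in Cap-F and 17.28 to 17.36 in ODNcap-F. Of 7 eosinophil markers 6 rose and none fell (14.66 to 14.72 in NT, 15.74 to 15.95 in Ctrl-F, 15.76 to 15.84 in Cap-F, 15.72 to 16.10 in ODNcap-F), and of 5 B and plasma cell markers 5 rose. Endothelial markers fell in 4 of 6 cases (16.40 to 16.43 in NT, 15.35 to 15.72 in Ctrl-F, 15.57 to 15.63 in Cap-F, 15.61 to 15.65 in ODNcap-F). The 6 alveolar markers, which define the tissue as lung, were well above background in every group, and 2 of them fell. Of the remaining marker lists in Ctrl-F, 1 of 6 T cell markers rose, none of 4 neutrophil markers passed, 2 of 5 airway epithelial markers rose and 1 fell, and 1 of 5 smooth muscle and fibroblast markers fell.

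Circadian clock genes also fell, 9 of 13 in Ctrl-F, at a summed level of 16.45 to 16.62 in NT and 14.85 to 15.23 in the 6 challenged mice. Of 9 heat shock genes 1 was called lower in Ctrl-F, beside 12.2% of all genes, while 2 lay higher without overlap, at a list median of -0.10. Of 7 glucocorticoid response genes 1 rose and 3 fell. Cardiomyocyte markers fell in 5 of 6 cases in Ctrl-F, at a summed level of 13.31 to 14.47 in NT and 10.06 to 10.77 in Ctrl-F, and they stood at 9.98 to 13.32 in Cap-F and 12.80 to 13.56 in ODNcap-F. Between ODNcap-F and Ctrl-F, all 6 were over 2-fold higher without overlap in ODNcap-F (median 2.26), although none passed the adjusted threshold. The part of these shifts in the members' values was not tested. NT and Ctrl-F occupied 1 row of the slide and Cap-F and ODNcap-F the other, so that row and group cannot be told apart in the other 4 comparisons.

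The genes closest to the mean centered profile of the 10 members, over 8 arrays and 20436 genes, were XR_168424 (root mean square distance 0.058 on the log2 scale), Acads (0.060), ENSMUST00000144716 (0.062), BX523363 (0.062) and 1700056E22Rik (0.065). All moved little, Acads, a mitochondrial fatty acid dehydrogenase, from 9.56 and 9.70 in NT to 10.29 and 10.22 in Ctrl-F. The mean profile itself stood at -0.45 and -0.25 in NT and at 0.22 and 0.12 in Ctrl-F. Its rise comes from Egr2 and Atf3, since the median difference of the members was -0.14, so these genes do not follow a typical member. Since Egr2 and Atf3 had the widest range of the members, the genes nearest to each were also listed, a choice made after the values were seen. Nearest to Egr2 among 1504 genes were Adam8, a metalloprotease of leukocytes (0.068), Htr7 (0.11), Pla2g7, which degrades platelet-activating factor (0.13), Cd300lb, a myeloid receptor (0.13), and Batf3 (0.14).

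Adam8 stood at 10.72 and 10.88 for NT, 14.34 and 14.43 for Ctrl-F, 14.38 and 14.10 for Cap-F and 14.32 and 14.03 for ODNcap-F. As with Egr2, the second mouse lay below the first in Cap-F and in ODNcap-F, a likeness that comes with choosing the nearest gene over these same arrays. Nearest to Atf3 among 1863 genes were Spsb4 (0.11), ENSMUST00000040960 (0.12), Itgax (0.12), Pla2g7 (0.13) and Cd300lb (0.14). Itgax, which encodes CD11c of dendritic cells and alveolar macrophages and is one of the markers above, stood at 11.42 and 11.30 for NT, 14.68 and 14.78 for Ctrl-F, 14.77 and 14.55 for Cap-F and 14.55 and 14.16 for ODNcap-F.

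**Figure D5:**
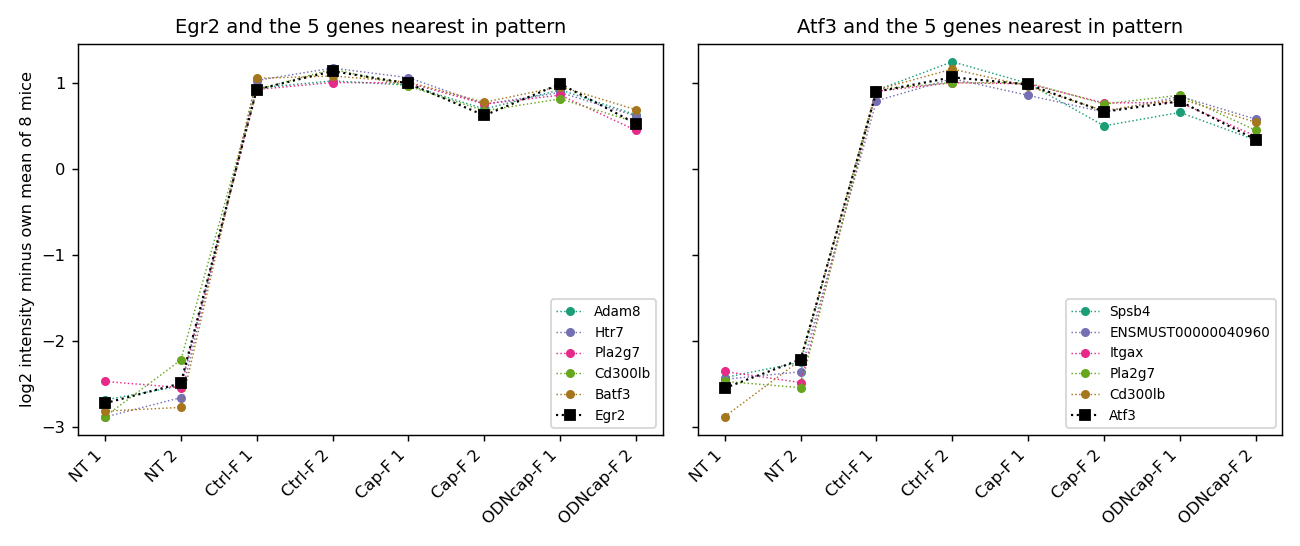
Log2 intensity minus the gene's own mean over the 8 mice (y axis) in each mouse (x axis) for Egr2 on the left and Atf3 on the right (black squares), each with the 5 genes nearest to it (colored dots). Dotted lines only join the points of a gene. All genes shown share the step between the NT mice and the 6 challenged mice, which for the nearest genes follows from how they were chosen.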

How the data were processed

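Per the labels and file headers, 8 Agilent SurePrint G3 Mouse 8x60K arrays, all on 1 slide and read in 1 scan, were extracted with Agilent Feature Extraction 11.0. The authors deposited background-subtracted, spatially detrended spot intensity values without normalization between arrays, raw median intensities with background, and log2 values of 32312 probes, quantile normalized over the arrays.

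Here, flagged spot values (792 over the 59305 spots per array) were left out, the other intensities were put on the log2 scale, averaged into 56605 probes and quantile normalized. A probe was kept if both mice of any 1 group read well above background, which held for 37116 probes (28992 genes). On single arrays 61.3% to 65.0% of probes were well above background, and none was saturated. Accessions matched a RefSeq name for 58.3% of the probes. The brightest probe of a gene stands for it. The 8 arrays were fitted together as 4 groups in limma (version 3.58.1, statmod 1.5.0, R 4.3.3), with 4 residual degrees of freedom and 1.96 added by moderation. A gene was called if its p, adjusted by Benjamini and Hochberg over all kept probes, was under 0.05 and its fold over 2. The fit was tested on simulated data. With 2 mice a group, an exact permutation test cannot go below p = 0.333, and precision is limited by the number of arrays.

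The members and lists were chosen with earlier results of these data known. The pathway genes named are the 2 called in Ctrl-F with the largest difference each way per list, and exceptions are marked. The values of 1 gene that this rule names are not reported here. Alternatives were scaling to the 75th percentile, normexp (offset 50) on raw medians, the deposited log2 values, the mean of a gene's probes, no filter or a filter over all 8 arrays, a replicate block, each array left out, fits of the compared groups alone, and the local-pooled-error test of the study's methods (100 bins, 10 spline degrees of freedom).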

Additional observations from a re-analysis of the deposited data

How the results depend on the processing

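Of 780 values of single members over 13 alternatives (5 changes of processing and each of 8 arrays left out), 753 moved by less than the spread between mice, 26 moved by more and 1 turned a difference whose groups did not overlap. That was the Klf10 difference of ODNcap-F from NT, which was 0.0012 with the mean of both probes in place of -0.17. The dimmer probe was not well above background in either of these groups. Counting overlapping groups too, 30 values changed sign, over 17 of the 60 differences. The count of 753 cannot show how stable the values are. Leaving out a mouse moves its group mean by an amount set by the gap between the mice of that group. The spread was taken from the same gaps, so these values stay within it almost by construction. The replicate block could not change the members' values, since they are differences of group means that do not use it. Its values are among the 780 and say nothing about stability. Egr2 stayed between 3.52 and 3.76 in Ctrl-F, 3.23 and 3.61 in Cap-F and 3.13 and 3.59 in ODNcap-F above NT, and Atf3 between 3.09 and 3.54, 2.99 and 3.38, and 2.72 and 3.16. Junb in Ctrl-F was 0.54 above NT with scaling to the 75th percentile (0.34), and Fosb in Cap-F was at -0.22 with normexp (-0.42). With the mean of a gene's probes the members' median was 0.15 for Ctrl-F against NT (-0.14 with the brightest probe) and 0.0093 for ODNcap-F against Ctrl-F (0.098). The median over all genes against NT was -0.072, -0.066 and -0.076 with normexp and -0.12, -0.12 and -0.13 with scaling to the 75th percentile.

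With each array left out, the members' median ranged from -0.24 to 0.033 for Ctrl-F against NT, from -0.38 to -0.044 for Cap-F against NT, from -0.053 to 0.20 for ODNcap-F against NT, from -0.066 to 0.13 for ODNcap-F against Ctrl-F, from 0.11 to 0.26 for ODNcap-F against Cap-F and from -0.21 to -0.023 for Cap-F against Ctrl-F. The direction turned without the second Ctrl-F mouse in the first, without the first NT mouse in the third and without the second Ctrl-F or the first ODNcap-F mouse in the fourth. The remaining mouse of a group was then assumed to vary like the other groups. Pathway genes called numbered 23 to 27, 24 to 27 and 20 to 23 against NT and 0 between challenged groups, and all probes called 7648 to 8277, 6625 to 7317 and 6931 to 7471 against NT, 0 to 5 for ODNcap-F against Ctrl-F, 1 to 8 for ODNcap-F against Cap-F (8 without the first ODNcap-F mouse) and 1 to 7 for Cap-F against Ctrl-F (7 without the first Ctrl-F mouse).

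Over all probes, 8203, 7098 and 7428 were called against NT for Ctrl-F, for Cap-F and for ODNcap-F, and 4221, 3642 and 3726 with normexp. For ODNcap-F against Ctrl-F, ODNcap-F against Cap-F and Cap-F against Ctrl-F, 0, 1 and 1 were called, 9, 10 and 10 without a filter, and 148, 116 and 156 by the local-pooled-error test. For the last 2 comparisons, normexp gave 3 and 3, and the deposited table, the filter over all 8 arrays and the fit of only the groups compared gave 0 and 0. Pathway counts stayed within 1.5 times under each alternative. Causes were not tested.

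Same-numbered mice did not deviate together in all pairs of groups (correlations of deviations from -0.0084 to 0.17, the highest between Cap-F and ODNcap-F). The numbers were therefore not taken to pair the mice, though a shared factor in single pairs of groups was not tested. With the replicate block, 27, 25 and 22 pathway genes were called against NT and 8184, 7099 and 7416 probes in all.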
